A study of Mus musculus with 24 samples.

Results

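The mitochondrial ribosomal protein genes encode the protein subunits of the ribosome inside mitochondria, and were taken here as all protein-coding genes of the mouse RefSeq gene table whose symbol starts with Mrpl or Mrps followed by a digit. This rule found 78 of 21887 genes, 49 named for the large subunit and 29 for the small subunit, on 17 chromosomes. A further 6 pseudogenes with such symbols were left out. Their chromatin was described from ChIP-seq peaks of 2 histone marks: H3K27ac, found at active promoters and enhancers, and H3K4me1, found at enhancers and on the flanks of active promoters. The cells were TgSpi1 erythroleukaemic cells, leukaemic erythroid cells from mouse bone marrow with a Spi1 transgene and overexpression of SPI1, an ETS family transcription factor of blood cells. They also carry a doxycycline-inducible short hairpin RNA against Spi1 and were grown with erythropoietin. Dox_Treated cultures received doxycycline for 48 h and Dox_Untreated cultures none; both carry the transgene and the hairpin construct. The series has 24 samples, of which 4 peak lists were used, 1 per mark and condition. Each H3K27ac list stands for replicates 1 and 2 together, and each H3K4me1 list for replicate 1. Doxycycline was never given to cells lacking the hairpin, so the drug, the hairpin and a lower SPI1 level cannot be told apart as sources of a difference.

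Mitochondrial ribosomes translate the few proteins encoded in mitochondrial DNA, all of them parts of the respiratory chain and ATP synthase. The ribosomal RNAs come from that DNA, while every ribosomal protein is encoded in the nucleus, made in the cytosol and imported. Some of these proteins descend from bacterial ribosomal proteins, and others were added in the mitochondrial lineage. Erythroid precursors depend on mitochondria for the first and last steps of haem synthesis.

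With 1 list per mark and condition there was no replicate error, and no difference below carries a test. Read depth is unknown, so a wider peak may reflect more reads, more cells with the mark or more of it per cell, and these cannot be told apart. The H3K27ac lists held 28902 peaks over 41.48 Mb untreated and 23341 over 41.2 Mb treated, with median widths of 1003 and 1353 bp. The H3K4me1 lists held 119362 peaks over 184.0 Mb and 101388 over 195.4 Mb, so the treated H3K4me1 list covered more of the genome. Of 10 erythroid marker genes, 8 had an H3K27ac peak within 5 kb of an end untreated and 10 treated, and their summed covered length was 42137 and 50047 bp. The other marker lists had H3K27ac at 4 of 6 T cell genes, 1 of 4 B cell genes and 2 of 6 myeloid genes in each list, and at 0 and 1 of 6 fibroblast and endothelial genes.

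A RefSeq transcription start (GRCm38.p6, the assembly that mm10 names) was matched for 69 of the 78 genes. The others were Mrpl4, Mrpl13, Mrpl15, Mrpl19, Mrpl38, Mrpl54, Mrps28, Mrps34 and Mrps35. The 200 bases before the start are shown for 7 members whose letters or peaks the results below turn on. Capitals mark matches, on either strand, to CCGGAAGT (the site of GABPA-like ETS factors), GAGGAAGT (the site preferred by SPI1), GCGCATGC (the NRF1 site) and AAGATGGC (the YY1 site). Mrpl32 is shown for its several NRF1-like matches, Mrpl9 and Mrpl22 for NRF1-like matches close to the start, Mrpl3 and Mrps22 for ETS matches close to the start, Mrps10 for the single SPI1-like match of the group, and Mrps23 as the gene whose annotated end misled the window count.
Mrpl32 (chr13:14613038-14613237, minus strand): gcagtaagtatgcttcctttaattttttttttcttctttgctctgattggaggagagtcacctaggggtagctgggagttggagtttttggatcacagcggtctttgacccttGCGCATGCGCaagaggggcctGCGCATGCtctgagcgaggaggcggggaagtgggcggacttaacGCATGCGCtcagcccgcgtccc
Mrpl9 (chr3:94443136-94443335, plus strand): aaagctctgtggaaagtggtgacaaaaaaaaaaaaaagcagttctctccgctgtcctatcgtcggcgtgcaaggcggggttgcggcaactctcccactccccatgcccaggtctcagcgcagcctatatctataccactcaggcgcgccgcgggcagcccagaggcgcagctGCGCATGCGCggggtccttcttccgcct
Mrpl22 (chr11:58171464-58171663, plus strand): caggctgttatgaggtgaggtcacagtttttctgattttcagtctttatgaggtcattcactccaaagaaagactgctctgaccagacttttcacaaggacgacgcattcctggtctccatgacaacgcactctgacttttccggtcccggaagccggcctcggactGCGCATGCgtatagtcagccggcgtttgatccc
Mrpl3 (chr9:105053068-105053267, plus strand): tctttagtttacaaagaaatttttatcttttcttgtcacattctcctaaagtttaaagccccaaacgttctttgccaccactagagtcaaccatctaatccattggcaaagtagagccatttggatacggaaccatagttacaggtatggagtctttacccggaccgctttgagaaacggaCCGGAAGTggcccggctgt
Mrps22 (chr9:98601680-98601879, minus strand): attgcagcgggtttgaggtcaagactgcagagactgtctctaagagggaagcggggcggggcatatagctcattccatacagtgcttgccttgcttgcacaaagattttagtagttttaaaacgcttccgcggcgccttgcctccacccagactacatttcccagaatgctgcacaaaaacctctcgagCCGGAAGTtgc
Mrps10 (chr17:47368997-47369196, plus strand): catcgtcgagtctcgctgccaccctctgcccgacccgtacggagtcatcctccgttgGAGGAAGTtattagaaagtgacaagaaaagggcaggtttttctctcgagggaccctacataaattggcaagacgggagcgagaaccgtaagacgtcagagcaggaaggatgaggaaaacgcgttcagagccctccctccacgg
Mrps23 (chr11:88204188-88204387, plus strand): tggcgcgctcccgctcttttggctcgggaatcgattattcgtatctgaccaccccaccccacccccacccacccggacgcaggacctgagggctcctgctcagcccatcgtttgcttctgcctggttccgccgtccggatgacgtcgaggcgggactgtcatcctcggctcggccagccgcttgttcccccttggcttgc

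H3K27ac lay at nearly all of the mitochondrial ribosomal protein genes in both conditions. The covered length of a gene is the number of bases inside peaks of a list that lie no further than 5 kb from either of its annotated ends. A peak was present for 77 of 78 members in the untreated list and 77 in the treated list, against 52.3% and 51.5% of all protein-coding genes. Within 1 kb of an end there was a peak at 75 members in each list, against 46.5% and 45.8% of all genes. A comparison set of 97 genes, called the cytosolic ribosomal protein genes below, was taken by symbol, Rpl or Rps followed by a digit. Most encode proteins of the ribosome of the cytoplasm. The symbol rule also takes in genes named alike that do not, such as the kinase gene Rps6ka1, and leaves out Rplp0. Of these 97 genes, 88 and 87 had a peak within 5 kb. Members often have close neighbours: another gene had an end within 5 kb of the end of all but 19 of them (24.4% without such a neighbour, against 54.0% of all genes), so some of the covered length may lie at a neighbour's promoter.

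The single member without H3K27ac in its windows was Mrps23, a mitochondria-specific protein of the small subunit (chromosome 11, 88194106 to 88211507), with 0 bp in both lists. Its annotation begins 10282 bp before the start in the promoter table, at 88204388, so the windows missed that start. A H3K27ac peak of 1653 bp (88203649 to 88205301) covered the start untreated, and one of 2053 bp (88203299 to 88205351) covered it treated. With the start in place of the annotated end, Mrps23 was therefore acetylated in both lists. Mrpl22 and Mrps2, the other members without H3K27ac within 1 kb of an end, have starts 1621 and 2115 bp inside their annotations. Mrps2 had a peak over its start of 953 bp untreated and 1053 bp treated.

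Covered H3K27ac length differed little between the lists at most members. The median was 2179.5 bp untreated and 2228 bp treated, and the median of the differences, treated minus untreated, was -75 bp. The length was greater in the treated list at 31 members, smaller at 43 and equal at 4. Over the 11693 genes with a peak in either list the medians were 2306 and 2303 bp, the median difference was 0 bp, 47.7% were longer and 48.8% shorter. The difference was at most 500 bp at 57 members (73.1%), against 62.5% of those genes. A gene was called longer or shorter where its covered length differed by at least 1000 bp and at least 1.5-fold. That held for 1 member in the longer direction, where 4.98% of all genes with a peak were called, and for 2 in the shorter direction, where 5.16% were. These shares are near or below the background and set the members apart in neither direction.

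**Figure D1:**
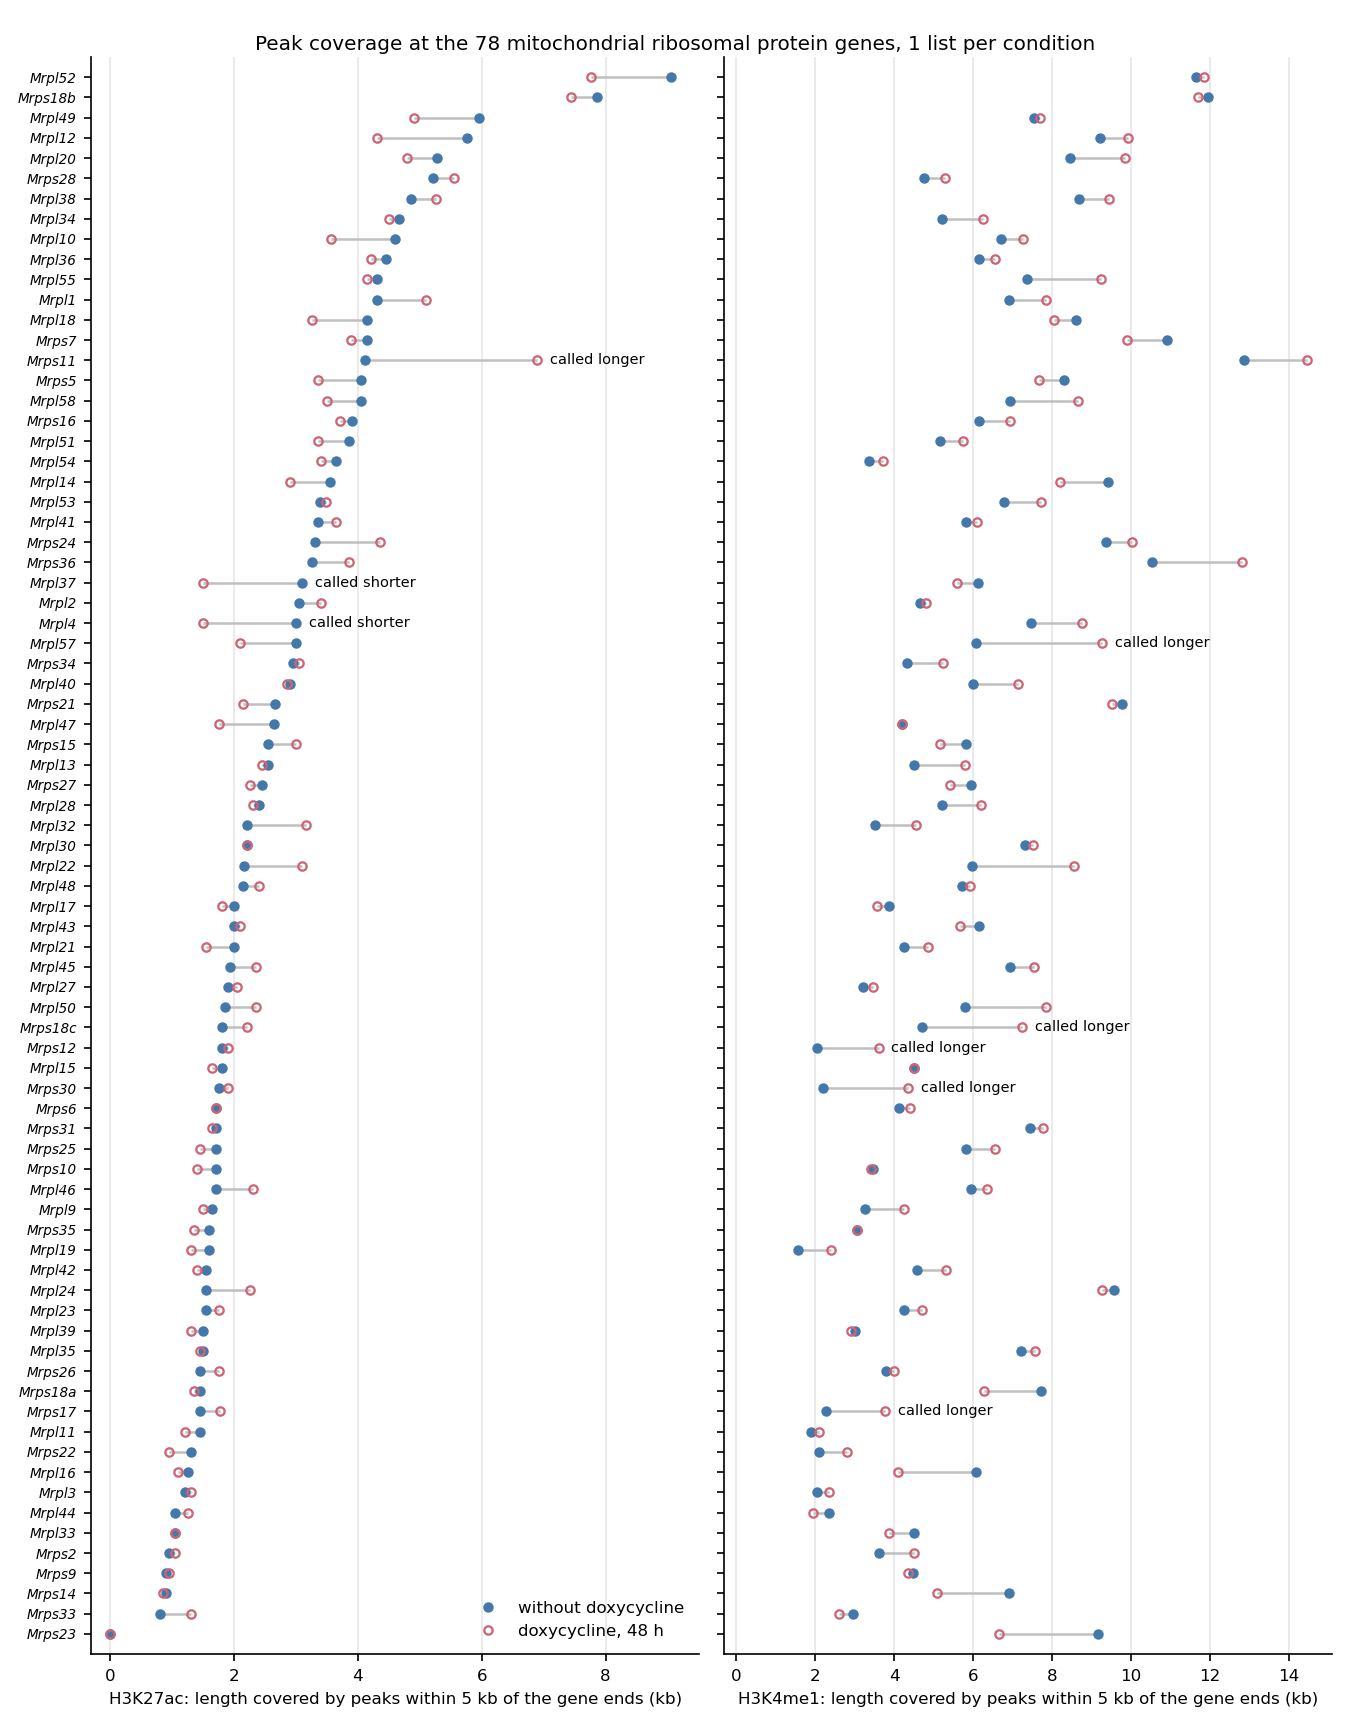
Length covered by H3K27ac peaks (left) and H3K4me1 peaks (right) within 5 kb of the annotated ends of each of the 78 members, in kb; filled points are the untreated list, open points the treated list, ordered by untreated H3K27ac. The paired points lie close together for most members in H3K27ac, with Mrps11 called longer and Mrpl37 and Mrpl4 called shorter, and the 5 H3K4me1 calls are all longer in these unscaled lengths.

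Each of the 3 H3K27ac calls rested on a peak away from the start or, for Mrpl4, whose start was not matched, on a peak outside the gene. Mrps11, a small subunit protein with a bacterial counterpart (chromosome 7, 78783131 to 78792988), had 4109 bp untreated and 6899 bp treated. Downstream of the gene the untreated list had a peak of 253 bp (78796699 to 78796951) where the treated list had one of 5653 bp (78796449 to 78802101), which runs past the window. Only the part inside the window counted. A further downstream peak of 703 bp (78795549 to 78796251) was in the treated list alone, and the peak over the start was 1703 bp untreated and 2303 bp treated. Mrpl37, a mitochondria-specific large subunit protein (chromosome 4, 107055874 to 107066866), had 3106 and 1503 bp. Its peak inside the gene (107062649 to 107064001, 1353 bp) was in the untreated list alone, while the peak over the start was 1753 bp untreated and 1503 bp treated. Mrpl4, a large subunit protein with a bacterial counterpart (chromosome 9, 21001252 to 21008839), had 3006 and 1503 bp. A peak outside the gene (21011349 to 21012351, 1003 bp) was in the untreated list alone.

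H3K27ac length was also compared near the start and away from it. Within 2 kb of the start, 68 members (leaving out Mrps23, whose windows miss its start) all had H3K27ac in both lists, and none differed by 1000 bp or more. The differences ran from -900 bp at Mrpl47 (2653 to 1753 bp) and Mrpl57 (3003 to 2103 bp) to 700 bp at Mrpl22 (903 to 1603 bp) and Mrpl24 (1553 to 2253 bp), and 60 of 68 were at most 500 bp. Over all 8501 genes with H3K27ac within 2 kb of a start in either list, 4.31% differed by 1000 bp or more. Over the 6855 genes with H3K27ac at the start in both lists, 2.95% did. In the rest of the windows, 36 of these members had no H3K27ac in either list. Of the 32 with some, 2 had equal lengths and 3 differed by at least 1000 bp: Mrps11 by 2190 bp, Mrpl37 by -1353 bp and Mrpl52 by -1250 bp.

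**Figure D2:**
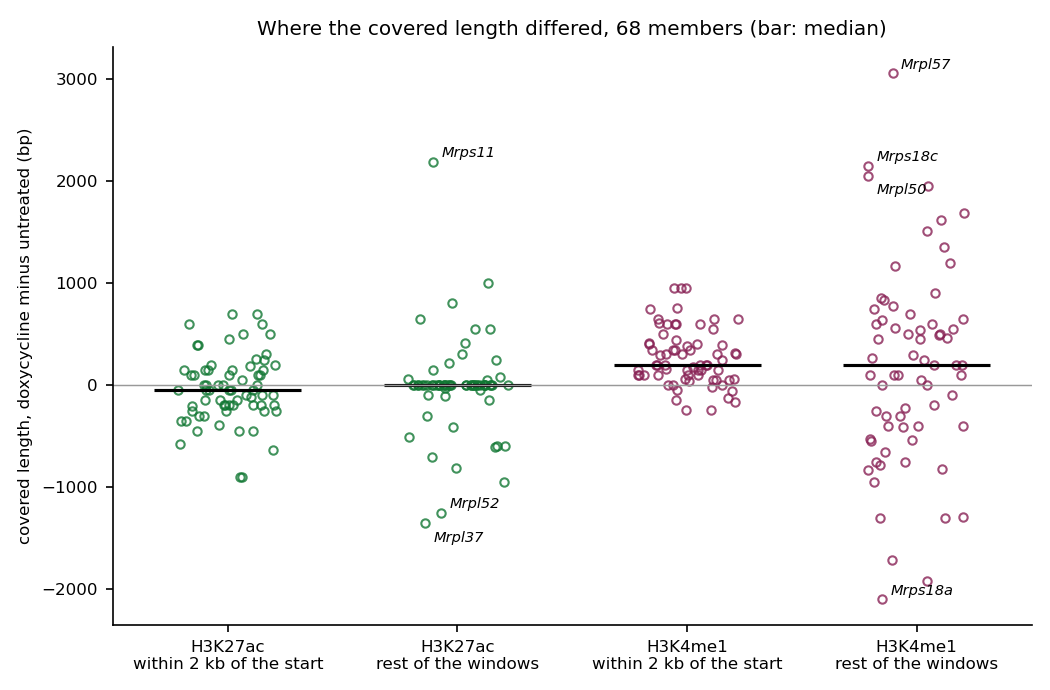
Covered length in the treated list minus the untreated list, in bp, for 68 members, split into the stretch within 2 kb of the start and the rest of the 5 kb windows; points are members and bars medians. In H3K27ac no point near the start reaches 1000 bp in either direction, and the outlying points lie in the rest of the windows; in H3K4me1 most points near the start lie above 0.

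By symbol, the genes named for the large subunit tended to have less H3K27ac length in the treated list. Those named for the small subunit, which include Mrps30 and Mrps36, were divided about evenly. Of the 49 genes named for the large subunit, 17 were longer and 30 shorter, with a median difference of -150 bp. Of the 29 named for the small subunit, 14 were longer and 13 shorter, with a median difference of 0 bp. The difference between these sets of names was not tested. Among the 30 large subunit proteins with a bacterial counterpart, 8 were longer and 20 shorter; among the 20 specific to mitochondria, Mrps30 included, 10 were longer and 10 shorter. Among small subunit proteins, 8 of 15 with a bacterial counterpart were longer and 6 shorter, and 3 of 9 mitochondria-specific ones were longer and 5 shorter. Mrps36, a small subunit member by symbol that is now known as a component of the 2-oxoglutarate dehydrogenase complex, had 3265 bp untreated and 3865 bp treated.

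The longest H3K27ac coverage was at Mrpl52, a mitochondria-specific large subunit protein, with 9056 bp untreated and 7756 bp treated. Mrps18b, one of 3 paralogues of the bacterial S18 protein, followed with 7859 and 7445 bp. Its paralogues Mrps18a (1453 and 1353 bp) and Mrps18c (1806 and 2203 bp) had much shorter coverage. Large differences toward less length, short of a call, were seen at other members too. Mrpl12, a stalk protein also reported to bind the mitochondrial RNA polymerase, had 5759 and 4306 bp. Mrpl10, on which that stalk is built, had 4606 and 3559 bp. Mrpl49, a mitochondria-specific subunit, had 5963 and 4910 bp. In the direction of more length, Mrpl1, of the large subunit stalk by which spent tRNA leaves, had 4306 and 5103 bp, Mrps24 of the small subunit had 3306 and 4359 bp, Mrpl22, which lines the exit tunnel, 2156 and 3106 bp, and Mrpl32, a large subunit protein that is matured by a protease of the inner membrane, 2209 and 3156 bp.

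At the start itself, most members carried H3K27ac without H3K4me1, and the marks overlapped on its flanks. Of the 69 members with a matched start, H3K27ac covered it in 62 (89.9%) untreated and 68 (98.6%) treated, against 40.5% and 42.7% of 17492 genes. In the better 50% of each list, by peak width, the order turned, with 59 starts covered untreated and 52 treated. That cut falls near the median width of each list, 1003 bp untreated and 1353 bp treated. The treated list thus had the stricter width limit, and these 2 counts do not compare the conditions on equal terms. Of the 7 whose start lay outside H3K27ac untreated, Mrpl22, Mrpl32, Mrpl41, Mrpl50, Mrps22 and Mrps9 were covered in the treated list, and Mrpl17 was outside in both. These 7 starts were not bare: each had H3K27ac within 2 kb untreated. At Mrpl22 a peak of 903 bp (58171699 to 58172601) began just after the start untreated, and a peak of 1603 bp (58171149 to 58172751) covered it treated. At Mrps22 and Mrps9 the treated peak reached only 22 and 34 bp before the start. The peak over the start had a median width of 1753 bp untreated and 1878 bp treated; of the 62 starts covered in both lists it was wider at 23, narrower at 35 and the same at 4. It reached a median of 837 bp before the start and 935.5 bp after it untreated, and 850.5 and 945 bp treated. At the cytosolic ribosomal protein genes it reached 827 bp before and 2363 bp after the start untreated.

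H3K4me1 covered only 6 of the 69 starts untreated and 9 treated (background 18.3% and 21.4%), and flanked the others. A start inside H3K27ac, outside H3K4me1 and with H3K4me1 on both sides within 2 kb was found for 56 members untreated (81.2%) and 59 treated (85.5%), against 30.7% and 30.1% of all genes with a start. In the better 50% of each list these numbers were 40 untreated and 37 treated, again in the other order and with the same unequal H3K27ac width limits. Taken over acetylated starts alone, the shares were 90.3% of members against 75.8% of all genes untreated, and 86.8% against 70.4% treated. At 550 bp after the start H3K4me1 covered 49.3% of members untreated and 76.8% treated, where all protein-coding genes had 28.4% and 34.2%. Of those 17492 genes, 10773 had any H3K4me1 within 2 kb of the start. In 50 members flanked in both lists, the stretch after the start without H3K4me1 had medians of 537.5 bp untreated and 433.5 bp treated. A small shift thus carries many members across 550 bp, and the median shortening, given below, was alike over all genes. At 1050 bp H3K4me1 covered 97.1% and 98.6% of members. H3K27ac covered 40.6% and 42.0% of members at 1050 bp, and 4.35% and 1.45% at 2050 bp, where the cytosolic ribosomal protein genes still had 58.7% and 46.7%.

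**Figure D3:**
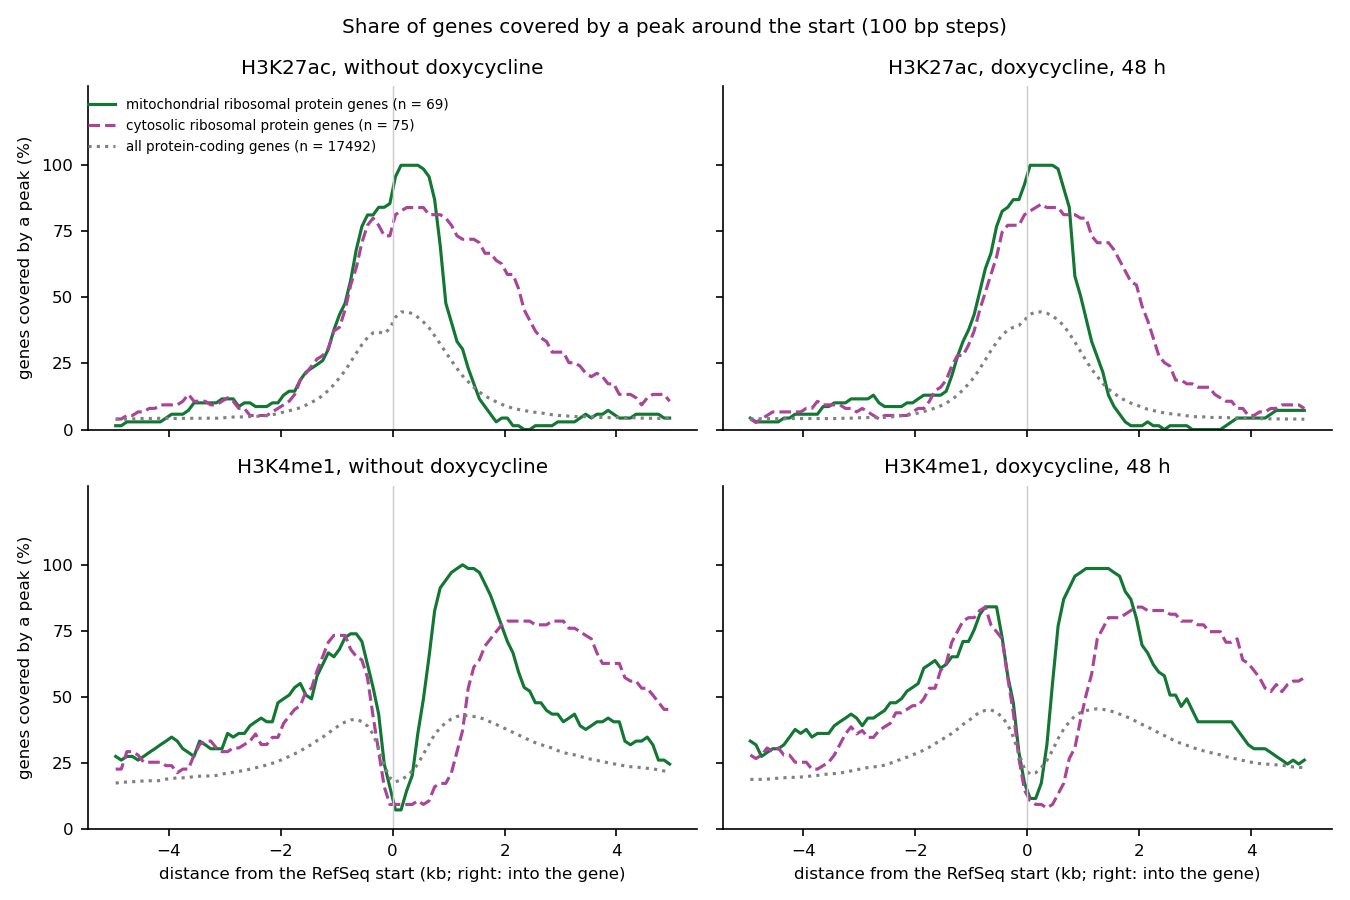
Percent of genes covered by a peak at each distance from the RefSeq start, in 100 bp steps, for 69 mitochondrial ribosomal protein genes, 75 cytosolic ribosomal protein genes and 17492 protein-coding genes with a matched start; rows are marks and columns conditions. The members' H3K27ac is a narrow block around the start that falls to 4.35% untreated at 2050 bp after it, and their H3K4me1 dips to 7.25% untreated at 50 bp and peaks beyond 1000 bp.

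The interval free of H3K4me1 around the start was shorter in the treated list at most members, as at genes in general. For the 50 members flanked on both sides in both lists, its median was 972 bp untreated and 797 bp treated. Untreated it reached a median of 442 bp before and 537.5 bp after the start, less far than the H3K27ac peak, so the marks overlap beyond it. It was shorter at 41, longer at 4 and equal at 5, with a median difference of -150 bp. Over 4661 genes of all kinds the medians were 1047 and 847 bp, 77.0% were shorter and the median difference was also -150 bp. The largest shortening was at Mrpl18, from 2447 to 1697 bp, and the largest lengthening at Mrps2, from 297 to 397 bp. The cytosolic ribosomal protein genes had a longer interval, with medians of 1697 and 1297 bp.

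H3K4me1 covered more bp near most members in the treated list, which also covered more of the genome in total. All 78 members had a H3K4me1 peak within 5 kb and within 1 kb of an end in both lists, against 69.0% and 68.0% of all genes within 5 kb and 60.5% and 60.0% within 1 kb. The median covered length was 5816.5 bp untreated and 6009 bp treated. It was longer at 53 members, shorter at 23 and equal at 2, with a median difference of 373.5 bp; over 15489 genes with a peak 62.9% were longer and the median difference was 347 bp. When treated lengths were scaled to the untreated total, 44 members were longer and 34 shorter, with a median of 67.0 bp, and 51.4% of all genes that differed were longer. Within 2 kb of the start, 58 of 69 members were longer and 8 shorter (all genes with H3K4me1 there: 69.7% longer), and 40 and 29 after scaling (56.4% of all genes longer). Over genes with H3K27ac at the start in both lists 76.4% were longer, and 59.8% after scaling, where the members had 58.0%.

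Members called longer in H3K4me1 numbered 5, where 6.91% of genes with a peak were called, and none was called shorter, where 3.81% were. With treated lengths scaled to the untreated total, Mrps12, Mrps17 and Mrps30 were still called, Mrpl57 and Mrps18c were not, and Mrpl16 was called shorter. Mrpl57, a small mitochondria-specific large subunit protein (chromosome 14, 57826228 to 57829087), went from 6069 to 9275 bp, with more H3K4me1 after the gene, while its H3K27ac went from 3003 to 2103 bp. Mrps30, a large subunit protein despite its symbol (chromosome 13, 118380110 to 118387252), went from 2209 to 4362 bp. Mrps18c (chromosome 5, 100798759 to 100804467) went from 4709 to 7252 bp. Mrps12, a decoding centre protein (chromosome 7, 28739641 to 28741821), went from 2056 to 3609 bp, and Mrps17, of the small subunit (chromosome 5, 129715450 to 129718712), from 2270 to 3773 bp. At Mrps30, Mrps12 and Mrps17 H3K27ac was alike in the lists, with 1753 and 1903 bp, 1803 and 1903 bp, and 1453 and 1767 bp. Large differences short of a call were seen at Mrpl22 (5965 and 8562 bp), Mrps36 (10529 and 12823 bp) and Mrpl50 (5806 and 7859 bp). In the other direction were Mrps23 (9168 and 6666 bp), Mrpl16 (6070 and 4109 bp), Mrps14 (6918 and 5094 bp), Mrps18a (7715 and 6271 bp), Mrpl14 (9416 and 8213 bp) and Mrps7 (10909 and 9909 bp). The windows of Mrps23 stay more than 2 kb from the start that carried H3K27ac, so its H3K4me1 difference lies away from that start.

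**Figure D4:**
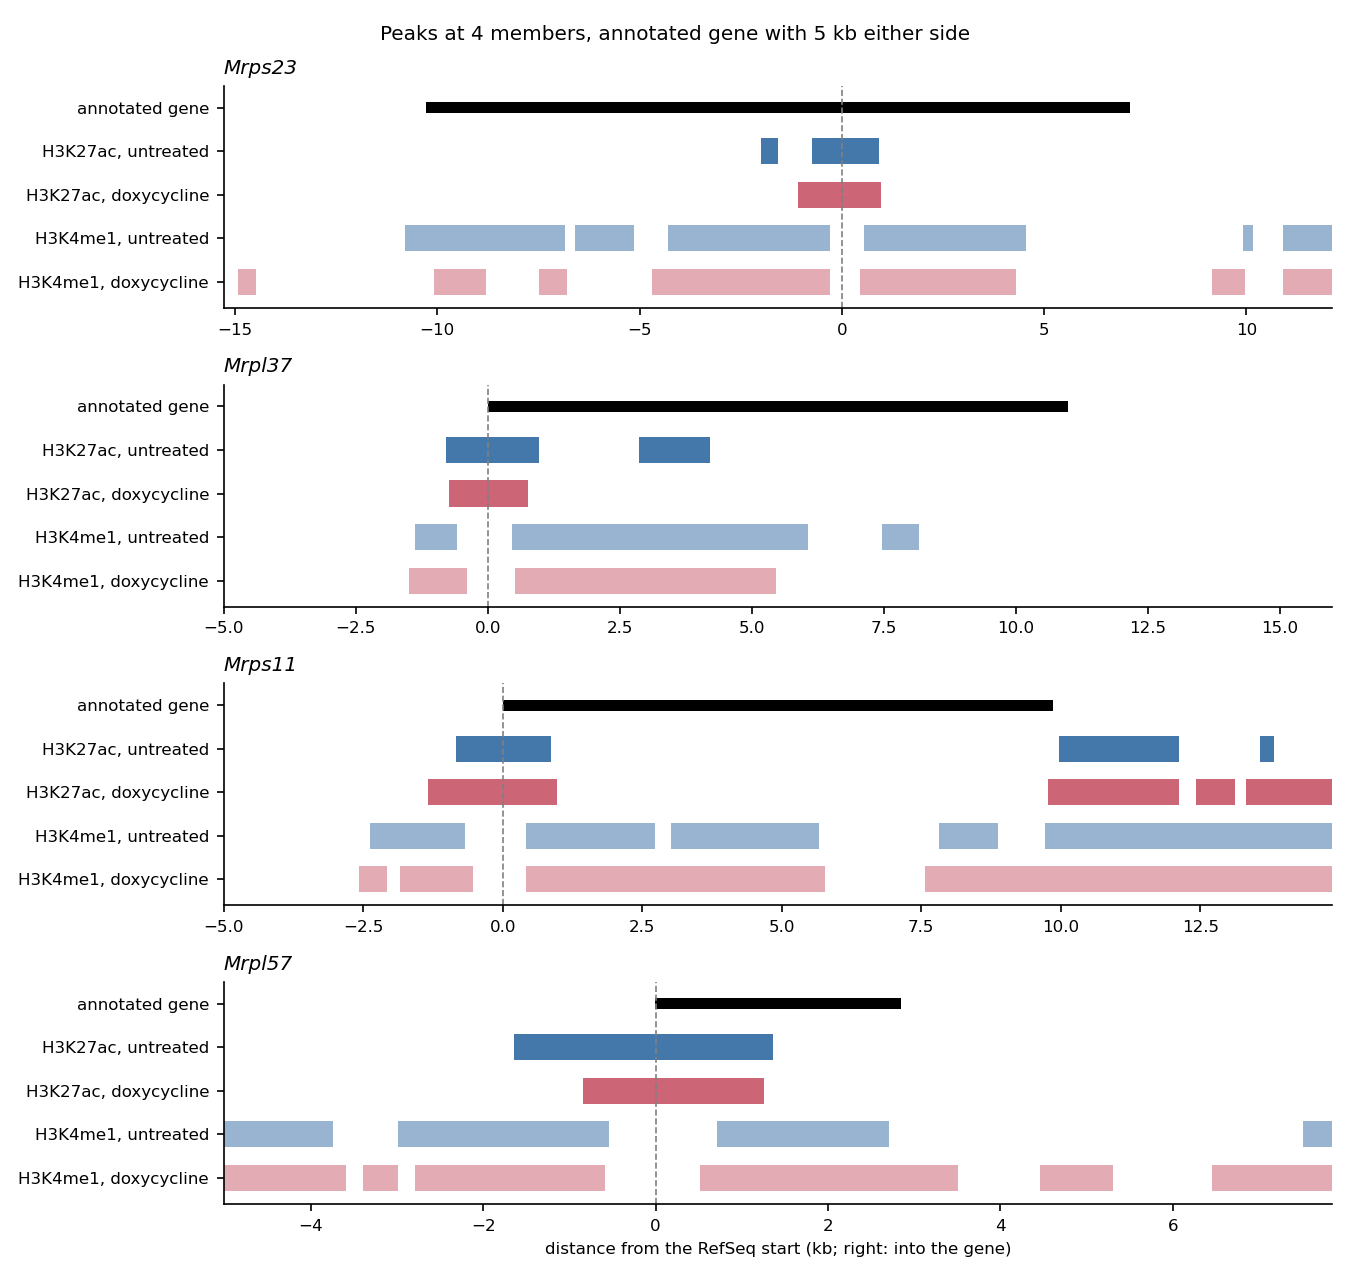
Peaks at Mrps23, Mrpl37, Mrps11 and Mrpl57 by distance from the RefSeq start in kb, with the annotated gene in black and the untreated (blue) and treated (red) lists of each mark below it, cut off 5 kb outside the gene. H3K27ac covers each start in both lists with H3K4me1 on both sides; Mrpl37 has a second H3K27ac peak untreated alone, Mrps11 a longer downstream stretch treated, and Mrps23 starts 10282 bp inside its annotation.

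Many members had an oppositely directed gene just upstream. A start of another gene on the other strand, upstream within 1 kb, was found for 23 of 69 members (33.3%), at a median distance of 141 bp, against 7.52% of all genes and 13.3% of the cytosolic ribosomal protein genes. Mrpl46 and Mrps11 are such a pair with each other, 42 bp apart on chromosome 7, and were the only 2 members whose windows overlapped; the peak over both starts was 1703 bp untreated and 2303 bp treated. The other partners were of many kinds. Mrpl40 lies 113 bp from Hira, a histone chaperone, Mrpl51 614 bp from Ncapd2, a condensin subunit, and Mrpl57 76 bp from Ska3, a kinetochore protein. Mrpl49 lies 192 bp from Fau, which encodes a ubiquitin-like protein fused to a cytosolic ribosomal protein. Mrps12 lies 147 bp from Sars2, the mitochondrial seryl-tRNA synthetase. Mrpl47 lies 308 bp from Ndufb5, a complex I subunit, Mrpl18 238 bp from Tcp1, a subunit of the cytosolic chaperonin, and Mrpl32 205 bp from Psma2, a proteasome subunit. These examples were chosen after their values were seen. With a partner, H3K27ac covered a median of 1263 bp of the 2 kb before the start untreated and 1296 bp treated; without one it covered 652.5 and 675.5 bp. After the start the medians were 1052 and 970 bp with a partner and 907 and 924 bp without.

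The promoter windows of 300 bases (250 before the start and 50 after it) held ETS, NRF1-like and YY1-like letters in larger shares than promoters in general. CCGGAAGT was in 11 of 69 members (15.9%), 5.28% of 17492 genes and 10.7% of the 7077 genes with H3K27ac at the start untreated. The cytosolic ribosomal protein genes had it in a like share, 12 of 75 (16.0%). GCGCATGC was in 8 members (11.6%), against 3.61% and 6.37%, and 4.0% of the cytosolic set. Its reverse complement overlaps it, so 1 stretch can match on both strands, as at Mrpl9 above; Mrpl32 had 4 matches in 3 stretches. AAGATGGC was in 12 members (17.4%), against 3.21% and 5.91%, and 8.0% of the cytosolic set, and at 8 of them it lay after the start. Mrpl32, Mrpl33 and Mrps27 held more than 1 of these 3 motifs (4.35%, against 0.709% of all genes), and 41 held none (59.4%, against 88.6%). GAGGAAGT was in Mrps10 alone (1.45%, against 3.14% and 2.98%); it and CCGGAAGT end in the same letters but cannot match at the same place. The covered H3K27ac length of Mrps10 was 1703 bp in the untreated and 1403 bp in the treated list, a difference smaller than the call rule asks.

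The remaining motifs differed among themselves. GGGCGG, the SP1 site, was in 34 members (49.3%), against 46.3% of all genes and 69.6% of acetylated starts. CACGTG, the E-box of MYC and USF factors, was in 5 (7.25%), against 7.91% and 11.3%. AGATAA, which erythroid transcription factors of the GATA family bind, was in 11 (15.9%), a larger share than the 9.94% of all genes and the 5.81% of acetylated starts. The observed over expected ratio of CpG in the window had a median of 0.818 in members, 0.577 in all genes and 0.815 at acetylated starts. The share of G and C had medians of 58.3%, 56.3% and 62.0%, so members were poorer in G and C than acetylated starts. Its bearing on the motif shares was not tested. A match to letters is a description of the sequence and shows no binding. The members whose start became covered in the treated list differed in these letters: Mrpl22 and Mrpl32 held GCGCATGC, Mrps22 held CCGGAAGT, and Mrpl41, Mrpl50 and Mrps9 held none of ETS, SPI1, NRF1 or YY1.

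**Figure D5:**
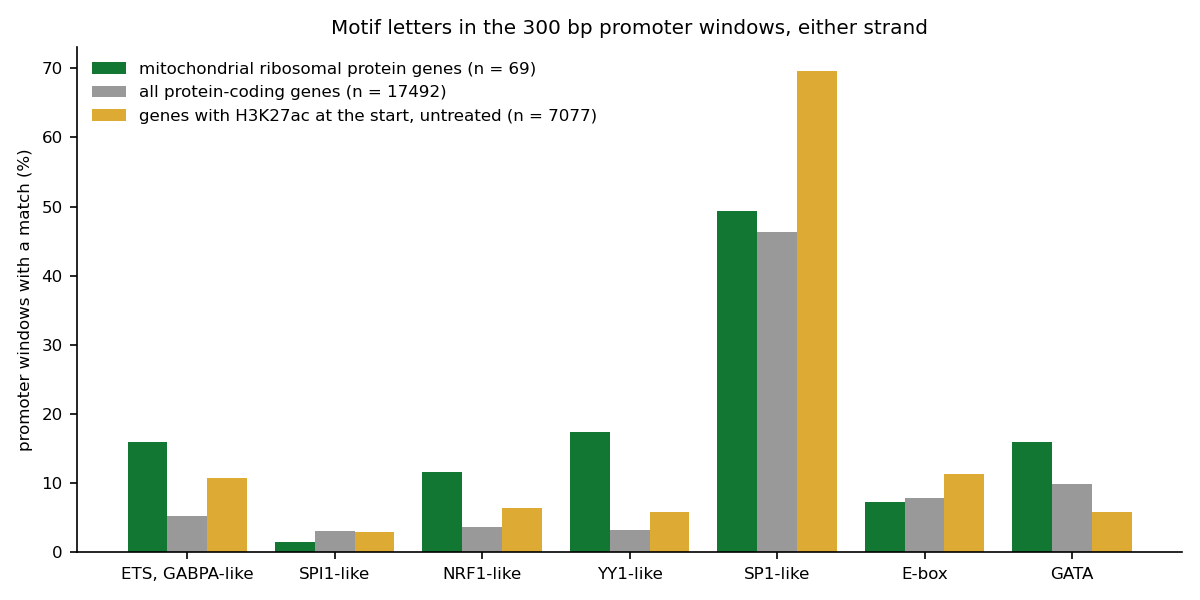
Percent of 300 bp promoter windows with at least 1 match, on either strand, to each set of letters, for 69 members, all 17492 protein-coding genes and the 7077 with H3K27ac at the start untreated. The ETS, NRF1-like, YY1-like and GATA bars of the members (15.9%, 11.6%, 17.4% and 15.9%) stand above both others, and the SPI1-like bar (1.45%) below both.

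Genes that work with the mitochondrial ribosome also carried H3K27ac in both lists: all 5 ribosomal subunits under other symbols, 19 assembly factors, 10 translation factors and 4 transcription genes. Values are given for those called. In H3K27ac, Tfam, which packages mitochondrial DNA, had 3403 bp untreated and 1553 bp treated, and Tfb2m, which opens mitochondrial promoters, 5409 and 3356 bp. Both are among the 4 transcription genes, and both were called shorter. Of the translation factors, the elongation factors Tufm (3237 and 1984 bp) and Gfm1 (2006 and 1003 bp) were called shorter. Of the assembly factors, the rRNA methyltransferase Mrm2 (2731 and 1631 bp) was called shorter, and Eral1, a chaperone of the small subunit rRNA, was called longer with 2556 and 9629 bp. In H3K4me1 only Nsun4, an rRNA methyltransferase, was called, with 3032 and 4982 bp. Over all genes with a peak, 4.98% were called longer and 5.16% shorter in H3K27ac, and 6.91% longer in H3K4me1. For comparison, none of the cytosolic ribosomal protein genes was called longer in H3K27ac and 6 of 97 were called shorter, near the share over all genes; 16 were longer and 71 shorter, with medians of 3812 and 3406 bp and a median difference of -400 bp, against -75 bp for the mitochondrial set.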

How the data were processed

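H3K27ac and H3K4me1 ChIP-seq peak lists of TgSpi1 cells with and without doxycycline were analysed; groups came from the sample titles. Per the submitters' processing notes, the tools were BWA and bcl2fastq 2.17.1.14 and the build was mm10. Not given in the sources used here are how peaks were called, at which thresholds, and how 2 H3K27ac replicates became 1 list. In the deposited H3K27ac files each peak has a position and its width in bp, and the deposited H3K4me1 lists a score by the authors, of unstated scale, used here for ranking within a list alone. Peak starts lie on a 50 bp grid and coordinates were read as 1-based. Python 3.11.15 with numpy 2.4.6 and pandas 2.3.3 served for covered lengths, which were tested on simulated data and checked against bedtools 2.31.1, with 0 genes differing; figures used matplotlib 3.10.9. Depth is unknown, and a list with more or wider calls gives longer covered lengths.

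Gene ends and promoters came from RefSeq tables on GRCm38.p6. Members, gene lists and motifs were chosen with earlier results of these data known. The rule for named members took, per mark, the 6 largest differences in each direction, the 3 members with most H3K27ac, those without any, and called genes of the related lists, which gave 24 members. Analyses from the promoter table (starts, intervals free of H3K4me1, opposite partners) and the members named for them were added after seeing the files. Alternatives were other windows, gene bodies, peaks of at least 200 bp, the better 50% of each list, equal peak numbers, merged peaks, scaled lengths, other call rules and members with shared windows left out.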

Additional observations from a re-analysis of the deposited data

How the results depend on the processing

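Counts of called members depended on the rule. For H3K27ac, where 1 member was called longer and 2 shorter, windows of 2 kb gave 0 and 0. Windows of 20 kb gave 2 longer, the better 50% of each list 6 longer and 15 shorter, a 2-fold rule 0 longer, a rule of 1.5-fold and 500 bp 2 longer, and leaving out Mrpl46 and Mrps11, which share windows, 0 longer. For H3K4me1, where 5 were called longer and 0 shorter, windows of 2 kb gave 2 and 2, windows of 20 kb 8 longer, scaled lengths 3 and 1, a 2-fold rule 0 longer, the better 50% 5 shorter and merged peaks 1 shorter. Requiring that a H3K4me1 peak cover an annotated end left 31 members untreated and 36 treated, where 78 had a peak within 1 kb. Starts in H3K27ac between H3K4me1 peaks numbered 26 untreated and 16 treated when peaks within 1 kb were merged, which closes short gaps, and 40 untreated and 37 treated in the better 50%; the main counts were 56 and 59. Starts in H3K27ac went from 62 and 68 to 59 and 52 in the better 50%, which turns the order of the conditions. For H3K27ac that setting keeps the wider peaks of each list, with limits near the median widths of 1003 bp untreated and 1353 bp treated. Its H3K27ac counts, the 6 longer and 15 shorter included, therefore set the conditions side by side under unequal limits. No order of the conditions can be read from them. Other causes were not tested. The remaining 81 values of these counts stayed within 1.5 times. The median H3K27ac difference stayed between -50 and -150 bp, and the H3K4me1 one between 67.0 and 945.5 bp. Differences of named members kept their sign in 179 of 184 values for H3K27ac and 173 of 192 for H3K4me1. With 1 list per mark and condition and no read counts, no difference between conditions has an error.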
